A study of Oryctolagus cuniculus with 18 samples.

Results

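The expression of 84 wound healing genes of interest (GOIs) was described in the unoperated aortas of 9 control rabbits, without reference to the atherosclerotic rabbits of the same study. Members were all assays of the rabbit wound healing PCR array other than the 5 reference genes (ACTA2, ACTB, GAPDH, LDHA and LOC100346936), 84 of 89 assays, and all samples labelled as control, 9 of 18 rabbits. The control rabbits were male New Zealand White rabbits, 11 weeks old when they were allocated, kept on ordinary chow for the 20 weeks of the study, with neither the aortic denudation nor the cholesterol diet of the other group. RNA came from a single lower segment of the abdominal aorta, in 1 sex, and the methods do not say which wall layers were taken. No separation of cell types is described, so that fewer cells of a type and less RNA per cell cannot be told apart. Rabbits are named by the numbers of their labels (1, 3, 7, 9, 11, 13, 15, 19 and 21).

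An artery such as the abdominal aorta is built mainly of contractile smooth muscle cells set in elastin and collagen, lined inside by endothelium and wrapped outside in a fibroblast-rich adventitia. Wound healing genes cover the steps by which a tissue repairs itself: clotting and its dissolution, the call for leukocytes by cytokines and chemokines, growth factor signals, adhesion through integrins, and the laying down and cutting of matrix. In an uninjured artery many of these genes are known to be quiet, while those that hold the wall together are used all the time.

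Each GOI was read in 1 well per rabbit by quantitative PCR with 40 cycles. The threshold cycle (Ct) is the cycle at which a well's signal crosses the detection threshold, and an earlier Ct means more transcript. The level given here is the log2 of the deposited ratio of a GOI to the reference genes of the same rabbit, so that 0 is the reference level, 1 unit is 1 PCR cycle, and a negative value lies below the reference. Wells with a Ct of 35 or later, or with no Ct, had been set to 35 and give only an upper limit on the level. That limit depends on the reference Ct, which ranged from 22.00 to 22.82 in 8 rabbits and was 24.53 in rabbit 3. The lowest level that a well could show was therefore between -13.00 and -12.18 in those 8 rabbits and -10.47 in rabbit 3. The GOIs of rabbit 3 were late too, with a median Ct of 29.08 against 26.57 to 27.38 in the others, so results that rest on it are given with and without it. Levels of different genes can be set side by side only if their assays amplify alike, and the efficiencies are not given in the sources used here.

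The smooth muscle gene TAGLN, the integrin gene ITGB1 and the matricellular gene CTGF led the order, and 5 genes of several lists closed it at the ceiling. The 84 mean levels had a median of -6.22. Only 3 GOIs, TAGLN, ITGB1 and CTGF, had a mean above the reference level, 27 lay within 4 log2 units below it, 22 lay 4 to 8 units below and 32 lay 8 or more units below. The mean levels of the always-detected GOIs spanned 15.2 log2 units.

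**Figure D1:**
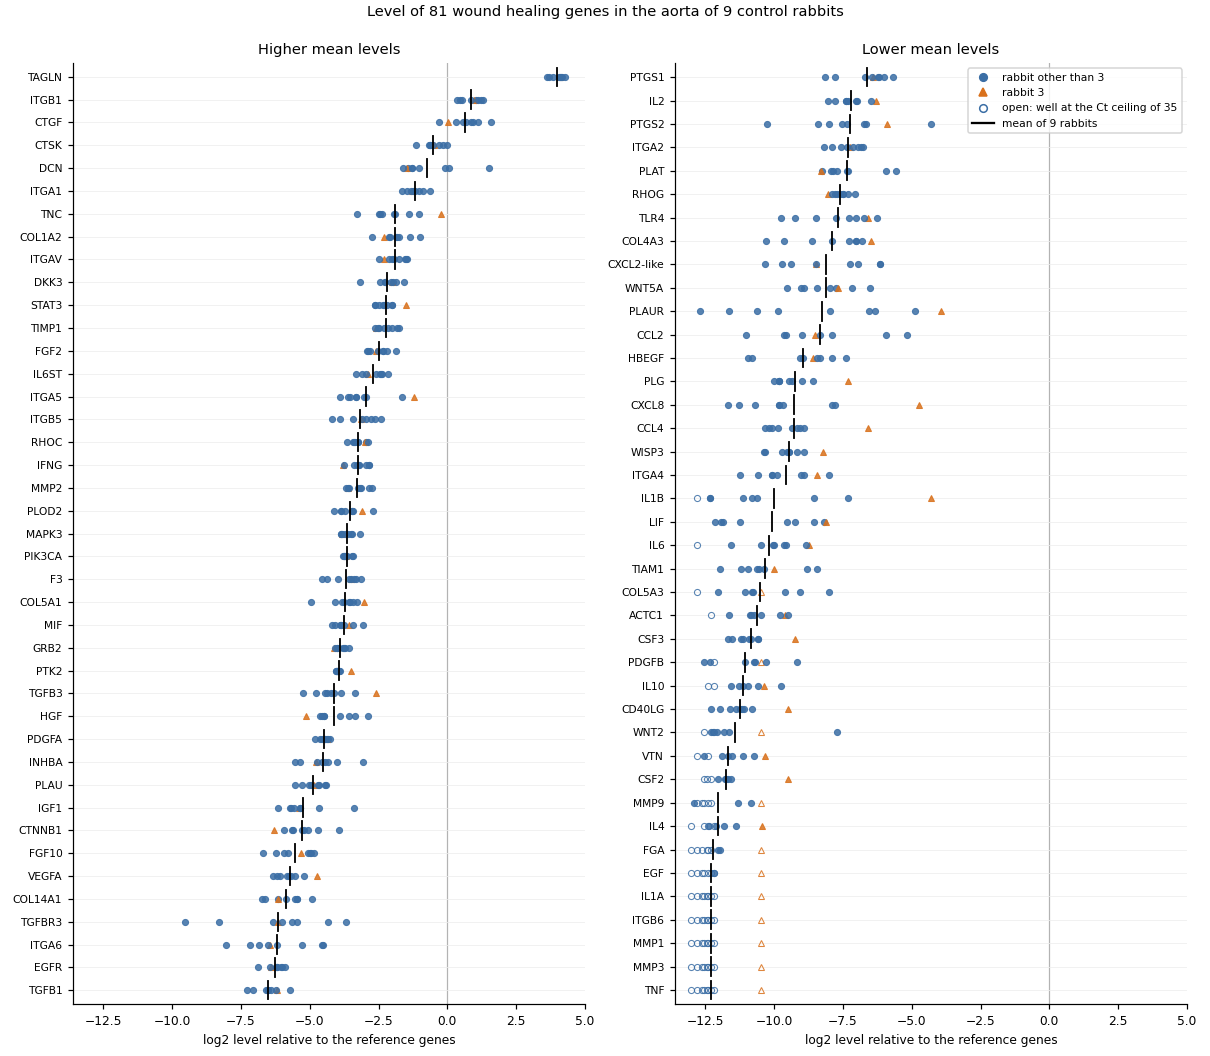
Log2 level of 81 of the 84 GOIs relative to the reference genes (x axis), in order of mean level from top to bottom of the left and then the right panel, with 1 point per control rabbit, an open point for a well at the Ct ceiling of 35, a triangle for rabbit 3 and a bar for the mean of 9 rabbits. TAGLN stands alone at the top with every rabbit between 3.62 and 4.28, and the last 5 genes hold open points alone.

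TAGLN, which encodes transgelin, an actin-binding protein of contractile smooth muscle, had the highest mean. Its lowest, median and highest rabbits were at 3.62, 4.09 and 4.28, with a mean of 3.99 ± 0.23 (SD, n = 9). It stood above the next gene, ITGB1, by 3.12 log2 units on average, an 8.72-fold difference if the assays amplify alike, and it did so in 9 of 9 rabbits. On the linear scale TAGLN made up 62.1% of the summed mean ratios of the 84 GOIs, and the 12 highest GOIs together made up 89.2%. ACTC1, cardiac alpha actin and the other gene of the contractile list, lay near the bottom at -12.29, -10.74 and -9.51 with 1 well at the ceiling. The smooth muscle marker that is also a reference gene, ACTA2, had a mean Ct of 18.87 ± 0.77 (SD, n = 9), the earliest of the 5 reference genes. The labelled tissue thus carried its defining smooth muscle transcripts at early Ct in every rabbit.

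ITGB1, the beta 1 chain shared by most integrins that bind matrix, followed with 0.36, 0.97 and 1.31 in the lowest, median and highest rabbit. CTGF, a matricellular factor of connective tissue, had 0.66 as its median and ran from -0.31 to 1.57. CTSK, cathepsin K, a lysosomal protease that cuts collagen and elastin, ran from -1.14 to -0.01 with a median of -0.52. These 3 genes and TAGLN were the only ones whose median rabbit lay within 1 log2 unit of the reference level or above it. DCN, decorin, a small proteoglycan that coats collagen fibrils, ranked 5 by its mean of -0.74 ± 1.04 (SD, n = 9), but its median was -1.28. Rabbit 21 at 1.52, rabbit 9 at 0.06 and rabbit 19 at -0.07 were high and the other 6 rabbits lay between -1.60 and -1.05. The remaining genes of the 12 highest were ITGA1 (mean -1.19), TNC, COL1A2 and ITGAV (all -1.90), DKK3 (-2.18), STAT3 (-2.24) and TIMP1 (-2.25).

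Collagen and proteoglycan genes were spread over most of the scale. Of the 7 genes of this list, 6 were detected in every rabbit, with a median mean level of -3.73 against -6.22 for all GOIs. COL1A2, a chain of type I collagen, ran from -2.73 to -1.01 with a median of -1.88. COL5A3, a minor chain of type V collagen, was the lowest of the list, with a median of -10.77, a lowest rabbit at -12.78 and 2 wells at the ceiling. Within rabbits COL1A2 exceeded COL5A3 in 9 of 9 rabbits, by at least 8.61 log2 units on average, a lower limit because of those 2 wells. COL5A1, the main chain of type V collagen, had a mean of -3.73, and PLOD2, which hydroxylates collagen lysines before cross-linking, had a mean of -3.52. COL4A3, a basement membrane chain, was at -7.90 ± 1.34 (SD, n = 9) and ran from -10.29 to -6.49.

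The 6 genes of matrix cutting fell into 2 sets of 3. CTSK, TIMP1 and MMP2 were read in every rabbit at means of -0.51, -2.25 and -3.30, whereas MMP1, MMP3 and MMP9 lay at or near the ceiling. TIMP1, an inhibitor of matrix metalloproteinases, exceeded MMP2, a gelatinase, in 9 of 9 rabbits, by 0.69 to 1.44 log2 units. MMP2 exceeded MMP9, the other gelatinase, by 6.84 to 10.03 log2 units, and because 6 of the 9 MMP9 wells were at the ceiling these differences are lower limits in those rabbits.

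Among the 9 integrin genes, ITGB1 was the highest and ITGB6 the lowest. ITGB6, an epithelial partner of the alpha V chain, was at the ceiling in 9 of 9 rabbits. ITGB5, an alternative partner of the alpha V chain, was read in all rabbits at -4.19, -3.10 and -2.41 and lay below ITGAV by 0.83 to 2.18 log2 units in 9 of 9 rabbits. The collagen-binding chain ITGA1 and the fibronectin-binding chain ITGA5 had means of -1.19 and -2.94. ITGA6, a laminin-binding chain, ITGA2, another collagen-binding chain, and ITGA4, typical of leukocytes, were lower, at -6.18, -7.33 and -9.58. Of the 7 adhesion and focal adhesion genes, TNC (tenascin C) was the highest at -1.90 ± 0.91 (SD, n = 9) and VTN (vitronectin), made mainly by the liver, the lowest at -11.66 with 2 wells at the ceiling. The small GTPase genes that the array lists as RHOC and RHOG lay at -3.24 and -7.60. Their accessions match these symbols in RefSeq, while the gene names on the array are those of related GTPases.

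Of the 7 plasminogen and coagulation genes, 6 were detected in every rabbit, and FGA was the lowest of the list. PLAU, the urokinase-type activator, ran from -5.55 to -4.40 and lay above PLAT, the tissue-type activator, by 1.17 to 3.83 log2 units in 9 of 9 rabbits. F3, tissue factor, which starts clotting, was at -3.70 ± 0.49 (SD, n = 9). The genes that the liver makes were low, with PLG (plasminogen) at -9.23 and FGA (fibrinogen alpha) at the ceiling in 7 of 9 rabbits.

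Growth factor genes ran from CTGF near the reference level to EGF at the ceiling in 8 of 9 rabbits, with a median mean level of -5.53 for the 17 genes. FGF2, a smooth muscle mitogen, was at -2.49 and exceeded FGF10, a factor of epithelial and fat development, by 3.04 ± 0.85 (SD, n = 9) log2 units. PDGFA was at -4.47 ± 0.16 (SD, n = 9) in a narrow range from -4.80 to -4.27, whereas PDGFB, the form made by endothelium and platelets, was at -11.05 with 2 wells at the ceiling. TGFB3 exceeded TGFB1 in 9 of 9 rabbits, by 2.04 to 3.60 log2 units. The 2 growth factor receptors on the array had near-equal means, -6.16 for TGFBR3 and -6.26 for EGFR, but TGFBR3 ran over 5.86 log2 units and EGFR over 0.96.

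Intracellular signalling was the one larger list with no well at the ceiling. All 8 genes were detected in every rabbit, with a median mean level of -3.66. STAT3, PIK3CA, MAPK3 and GRB2, which relay signals from cytokine, growth factor and integrin receptors, had means from -2.24 to -3.89. The cyclooxygenase genes were lower. PTGS1, the constitutive form, was at -6.62 ± 0.82 (SD, n = 9), and PTGS2, the inducible form, was at -7.24 ± 1.66 (SD, n = 9) and ran from -10.26 to -4.32. PTGS1 was higher in 6 of 9 rabbits, a difference of 0.62 ± 1.44 (SD, n = 9) log2 units that was within the spread between rabbits (exact two-sided sign-flip test, adjusted p = 0.262 over 3486 pairs).

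The cytokine and the chemokine list had the lowest median levels of the 12 lists, though single members lay high. The 10 interleukin, interferon and other cytokine genes had a median mean level of -10.66, with 6 of them at the ceiling in at least 1 rabbit. The 7 chemokine and colony-stimulating factor genes had a median of -9.26. MIF, a cytokine that many cell types store, was the highest of the chemokine list at -3.75 ± 0.34 (SD, n = 9). CCL2, which attracts monocytes, and CXCL8, which attracts neutrophils, were at medians of -8.53 and -9.81. CSF2, a growth factor of myeloid cells, closed the list at -11.73 with 3 wells at the ceiling. The receptor subunit IL6ST, shared by IL6 and LIF, was at -2.69 and exceeded its ligand LIF by 5.23 to 9.72 log2 units in 9 of 9 rabbits, and the lipopolysaccharide receptor TLR4 was at -7.68 ± 1.23 (SD, n = 9).

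IFNG, the interferon of T lymphocytes and natural killer cells, ranked 21 of 84, between RHOC and MMP2. Its level was -3.79, -3.20 and -2.84 in the lowest, median and highest rabbit, and its Ct was 25.38 to 25.99 in 8 rabbits and 28.32 in rabbit 3. The other T lymphocyte genes did not come near it. IL2 lay at -8.04, -7.32 and -6.31, CD40LG at -12.27, -11.22 and -9.51, and IL4 was at the ceiling in 4 of 9 rabbits. IFNG exceeded IL2 by 2.52 to 5.18 and CD40LG by 5.72 to 9.11 log2 units, in 9 of 9 rabbits each. The specificity of the IFNG assay was not tested here, and these values are those of the assay listed under that name.

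The marker lists of the other cell types that an aortic segment can hold were read in the same way. The summed ratio of the fibroblast genes COL1A2, DCN and COL14A1 was 0.567, 0.665 and 3.30 in the lowest, median and highest rabbit, with none at the ceiling. The 4 T lymphocyte genes summed to between 0.0800 and 0.148, most of it from the IFNG assay in each rabbit, whose specificity was not tested. The 6 macrophage and inflammatory leukocyte genes summed to 0.00291, 0.00762 and 0.0635, the last in rabbit 3, without which the highest sum was 0.0208. Of these 6, TNF and IL1A were at the ceiling in every rabbit and TLR4 in none. The 2 epithelial genes, ITGB6 and EGF, summed to at most 0.00141, or 0.00043 without rabbit 3, with all but 1 of their 18 wells at the ceiling, and the liver genes FGA, PLG and VTN to at most 0.00781, or 0.00309 without rabbit 3.

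Of the 756 wells, 87 (11.5%) were at the ceiling, 34 of them with no Ct at all and 53 with a Ct of 35 or later. They belonged to 18 genes, and the other 66 GOIs had a Ct below 35 in every rabbit. Each rabbit had between 7 and 12 such wells, and rabbit 3, whose limit lay highest, had 11.

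Of the 18 genes, 5 gave no well below the ceiling. These were the interstitial collagenase MMP1, the stromelysin MMP3, the inflammatory cytokines IL1A and TNF, and ITGB6. They were not alike in how late they were. TNF had a Ct in 8 of 9 wells, the earliest at 35.05, and MMP3 had its earliest at 35.20, but ITGB6 had no Ct in 7 wells, IL1A in 6, MMP3 in 5 and MMP1 in 4. Levels of these 5 genes are upper limits, from -13.00 to -10.47 by rabbit, and their order among themselves cannot be given.

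EGF had 8 wells at the ceiling and was read only in rabbit 21, at a Ct of 34.74. FGA had 7 and was read in rabbits 1 and 11, at 34.79 and 34.48. MMP9 had 6 and was read in rabbits 1, 15 and 21, at 33.67, 34.91 and 33.86. The wells that were read for these 3 genes thus all had a Ct of 33.67 or later. Fewer than 5 wells were at the ceiling for IL4 with 4, WNT2 and CSF2 with 3 each, IL10, COL5A3, PDGFB and VTN with 2 each, and ACTC1, IL1B and IL6 with 1 each.

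**Figure D2:**
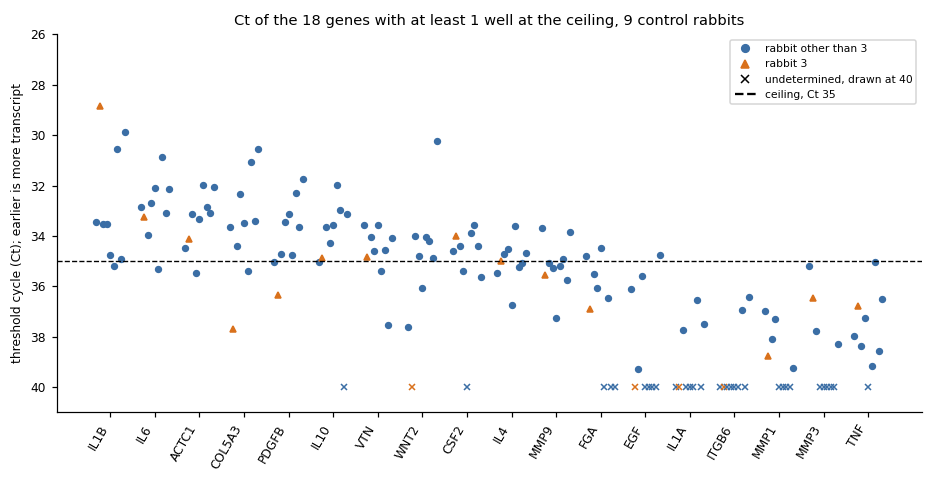
Ct in cycles (y axis, earlier at the top) of the 18 GOIs with at least 1 well at the ceiling, with 1 symbol per control rabbit, a triangle for rabbit 3, a cross at 40 for a well with no Ct and a dashed line at the ceiling of 35. Wells pass from above to below the line from left to right, and the earliest well of WNT2, at 30.25 in rabbit 21, lies far from its others, while IL1B has 3 early wells, from 28.85 in rabbit 3 to 30.56 in rabbit 15.

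The line between read and not read was fine for several genes. There were 9 wells within 0.1 cycles of 35, 4 of them on the detected side. IL1B and WNT2 were near the ceiling in most rabbits and clearly above it in a few. IL1B, an early inflammatory cytokine, lay between -12.78 and -10.61 in 6 rabbits, but at -8.56 in rabbit 15, -7.32 in rabbit 21 and -4.32 in rabbit 3. WNT2, a secreted Wnt ligand, was at the ceiling in rabbits 1, 3 and 11 and between -12.27 and -11.63 in 5 rabbits, but at -7.70 in rabbit 21.

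The lowest means among the 66 always-detected GOIs were those of CD40LG (-11.23), CSF3 (-10.85), TIAM1 (-10.33), LIF (-10.09), ITGA4 (-9.58) and WISP3 (-9.46). CD40LG, the ligand by which T lymphocytes activate other cells, had a Ct from 33.16 to 34.89, so that it too was read just short of the ceiling. CSF3, the growth factor of neutrophils, ran from -11.67 to -9.24. TIAM1, an activator of the GTPase Rac, ran from -11.96 to -8.46. LIF, a cytokine of the IL6 family, ran from -12.13 to -8.13.

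The abundance order was examined first between neighbours and then over wider steps. Each gene was compared with the next one down within rabbits, where the reference level cancels, by an exact two-sided sign-flip test over all sign assignments of the 9 rabbits. The order being tested was set by the same values. None of the 83 neighbour pairs passed an adjusted p of 0.05 (0% called), with a lowest adjusted p of 0.162, and 2 had an unadjusted p under 0.05. Those 2 pairs, TAGLN over ITGB1 and CTGF over CTSK, kept their order in 9 of 9 rabbits (exact p = 0.00391 each, the smallest that 9 rabbits allow). With 83 tests, 7 pairs would have to reach that smallest p before any could pass, so the count of 0 says nothing about how far neighbours differ.

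All 3486 pairs of the 84 GOIs were then compared with the same exact test, a comparison added after the neighbours had been seen. Of these pairs, 3079 (88.3% called) differed at an adjusted p under 0.05. The share rose with the distance in rank. It was 2.41% for genes 1 rank apart, 31.7% for 2 to 5 ranks, 76.3% for 6 to 10 ranks, 97.7% for 11 to 20 ranks and 100% beyond. The ranks were set by these same levels, so a rise with distance is built in and says nothing about the order. Pairs with the 18 genes that had wells at the ceiling are counted too, with such wells held at their limit. The within-rabbit differences named above for pairs such as COL1A2 and COL5A3, TIMP1 and MMP2, PLAU and PLAT, or IFNG and IL2 belong to these called pairs (exact sign-flip test, adjusted p = 0.00513 for each over all pairs). They were picked out after the levels were seen.

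Some GOIs stood at nearly the same level in all control rabbits and others differed by several log2 units. Among the 66 always-detected GOIs the SD over the 9 rabbits had a median of 0.578 log2 units and ran from 0.134 to 3.09. It was under 0.5 for 28 GOIs and over 1 for 16. Without rabbit 3 the median was 0.517, and again 16 GOIs had an SD over 1. With 1 well per gene and rabbit the SD holds the error of the PCR as well as the difference between animals.

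**Figure D3:**
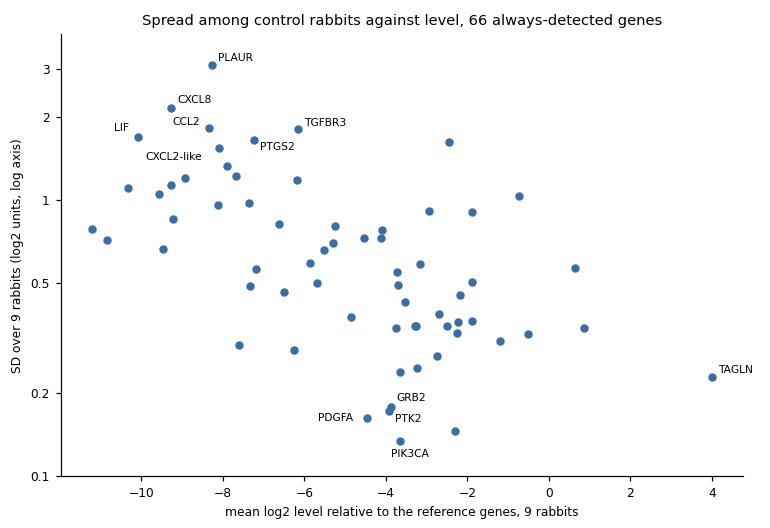
SD over the 9 control rabbits in log2 units (y axis, log scale) against mean log2 level relative to the reference genes (x axis), with 1 point for each of the 66 always-detected GOIs and names for 5 of the tightest and 7 of the widest. The points lie lower toward the right, with PIK3CA at 0.13 and PLAUR at 3.09 as the extremes.

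Among the 6 tightest genes were PIK3CA (SD 0.13), PDGFA (0.16), PTK2 (0.17), GRB2 (0.18) and TAGLN (0.23). PIK3CA, a catalytic subunit of PI3 kinase, lay at -3.80, -3.69 and -3.42 in the lowest, median and highest rabbit. PTK2, focal adhesion kinase, lay between -4.05 and -3.89 in 8 rabbits and at -3.50 in rabbit 3. Without rabbit 3 its SD was 0.059, the lowest of the 66 GOIs. Apart from PDGFA and TAGLN, these genes encode signalling proteins that most cells use.

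PLAUR, the urokinase receptor, was the widest, with an SD of 3.09. Its level was -3.93 in rabbit 3, -4.88 in rabbit 1, -6.32 in rabbit 9, -6.53 in rabbit 7, -7.96 in rabbit 21, -9.86 in rabbit 19, -10.63 in rabbit 11, -11.64 in rabbit 15 and -12.69 in rabbit 13. Rabbits 1, 3, 7 and 9 were thus the 4 highest, with a Ct of 27.70 to 29.02 against 30.51 to 34.91 in the other 5. The labels name no plate or day by which rabbits could be grouped, and whether one moved with PLAUR was not tested. Its ligand PLAU showed no such range, with an SD of 0.38.

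The next widest were CXCL8 (2.16), CCL2 (1.83), TGFBR3 (1.82), LIF (1.70) and PTGS2 (1.66). CXCL8 was -4.73 in rabbit 3, -7.90 and -7.79 in rabbits 15 and 21 and between -11.69 and -9.67 in the other 6, and without rabbit 3 its SD was 1.43. CCL2 was highest in rabbits 21 and 15, at -5.19 and -5.94, and between -11.02 and -7.90 in the other 7. TGFBR3, a coreceptor for TGF-beta, was -3.69 in rabbit 21 and -9.55 in rabbit 13. The lowest rabbit was rabbit 13 for PLAUR, CXCL8, CCL2, TGFBR3 and LIF, and rabbit 1 for PTGS2.

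Low genes varied more than high ones. The 22 highest of the 66 GOIs had a median SD of 0.357, the 22 next 0.498 and the 22 lowest 1.08. Across the 66 genes mean level and SD had a Pearson r of -0.525 and a Spearman rho of -0.576, as a description, since genes read in the same 9 rabbits are not independent replicates. Late wells sample few template molecules, and the part of this in the spread was not tested. By list, the median SD of the detected genes was lowest for the contractile list, in which TAGLN alone was detected in every rabbit (0.228), and next lowest for the signalling genes (0.256). It was highest for the chemokines and colony-stimulating factors (1.34), with the other lists between, and was 0.578 over all detected GOIs. DCN (1.04), ITGA5 (0.91) and TNC (0.91) were wide despite a high level, with SDs of 1.07, 0.68 and 0.71 without rabbit 3.

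Covariation between genes was described over all 2145 pairs of the 66 always-detected GOIs, by Pearson r of the log2 levels over the 9 rabbits with an exact two-sided permutation test over the 362880 pairings. No pair passed an adjusted p of 0.05 (0% called), and the lowest adjusted p was 0.0591. Without adjustment 224 pairs (10.4%) had a p under 0.05, 152 with a positive and 72 with a negative r. Spearman's rho with the same exact test also gave 0 pairs after adjustment and 206 before it. The median r over all pairs was 0.07. Without rabbit 3 the counts were 0 after adjustment and 239 (11.1%) before it, and 148 pairs with the same sign were shared, 66.1% of the first and 61.9% of the second set. The shared reference level adds the same deviation to every GOI of a rabbit, so pairs are not independent of one another.

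This count depended on which genes served as reference. At an adjusted p under 0.05 it was 0 with the deposited reference, 0 with the arithmetic mean of the same 5 Ct, 0 with ACTB, GAPDH and LOC100346936 alone, 1 without ACTA2, 4 without LDHA and 6 with the mean of the detected GOIs as the reference. The pairs below are therefore described as the extremes of 2145 pairs, not as established relations.

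**Figure D4:**
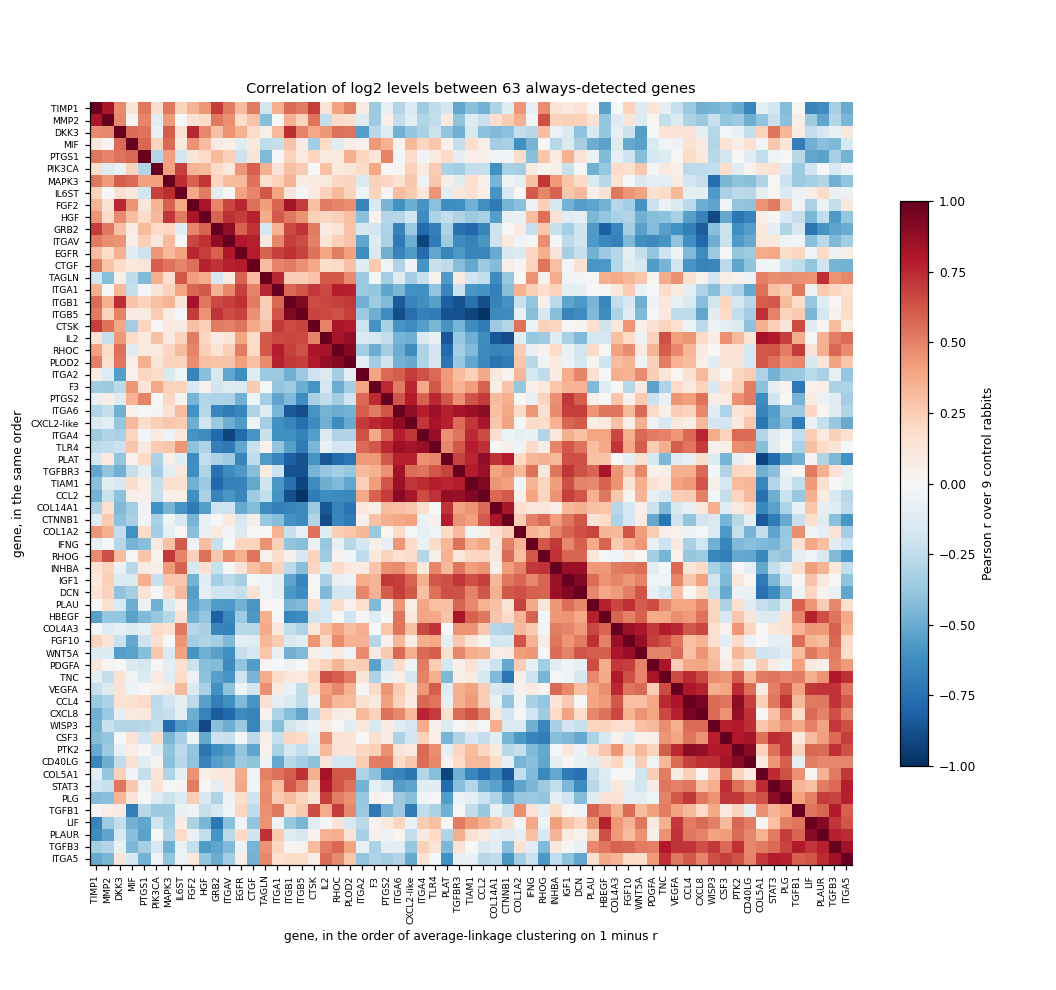
Pearson r over the 9 control rabbits between the log2 levels of 63 of the 66 always-detected GOIs, red for positive and blue for negative r, with both axes in the order of average-linkage clustering on 1 minus r. A red block holds CCL2, TIAM1, TGFBR3, PLAT, TLR4, ITGA4, CXCL2-like and ITGA6, and the same genes are blue against ITGB5 and ITGB1, but no pair passed an adjusted p of 0.05.

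The pair with the smallest p was CCL2 and ITGB5, which ran opposite to each other (r = -0.98, rho = -0.97, exact permutation p = 2.76e-05, adjusted p = 0.0591). Rabbits 21 and 15, with the highest CCL2, had the lowest ITGB5, at -4.19 and -3.92, and rabbit 13, with the lowest CCL2, had the highest ITGB5, at -2.41. Without rabbits 15 and 21, the 2 farthest from the median of CCL2, r was -0.92, and without rabbit 3 it was -0.98. Over the 6 reference settings r lay between -0.98 and -0.88 and the adjusted exact p between 0.0458 and 0.0689, so that this pair crossed 0.05 without ACTA2 and without LDHA and not otherwise.

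The 8 positive pairs with the smallest p were CCL4 and CXCL8 (r = 0.95), PLOD2 and RHOC (0.92), ITGB1 and ITGB5 (0.93), CCL2 and TIAM1 (0.93), CCL2 and ITGA6 (0.90), PTK2 and CD40LG (0.91), DCN and IGF1 (0.92), and IL2 and PLOD2 (0.88). Their adjusted exact p ranged from 0.106 to 0.217. Of these pairs, CCL4 with CXCL8 and PLOD2 with RHOC passed without LDHA in the reference (adjusted exact p = 0.0458 each), and ITGB1 with ITGB5 passed with the mean of the detected GOIs as reference (0.0118). CCL4 and CXCL8, both leukocyte attractants, were highest together in rabbit 3, at -6.59 and -4.73, and lowest together in rabbit 13, at -10.34 and -11.69. Without rabbit 3 their r was 0.89. ITGB1 and ITGB5, both integrin beta chains, were low together in rabbits 9, 15 and 21, and r was 0.93 without rabbit 3 too. DCN and IGF1, both made by fibroblasts among other cells, were highest together in rabbit 21, and r was 0.75 without that rabbit and 0.90 without rabbits 9 and 21. PTK2 and CD40LG, both highest in rabbit 3, had r = 0.74 without it (adjusted exact p = 0.398). CCL2 with TIAM1 and CCL2 with ITGA6 rested partly on rabbits 15 and 21, without which r was 0.70 and 0.73.

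The other negative pairs by the same rule were COL5A1 and PLAT (r = -0.91), HGF and WISP3 (-0.90), and ITGA4 and ITGAV (-0.92), with adjusted exact p from 0.132 to 0.210. HGF with WISP3 passed without LDHA in the reference (adjusted exact p = 0.0458). PLAT was highest in rabbits 21 and 15, at -5.57 and -5.94, where COL5A1 was lowest, at -4.95 and -4.09. The alpha V and alpha 4 integrin chains ran opposite, with r = -0.90 without rabbit 3.

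**Figure D5:**
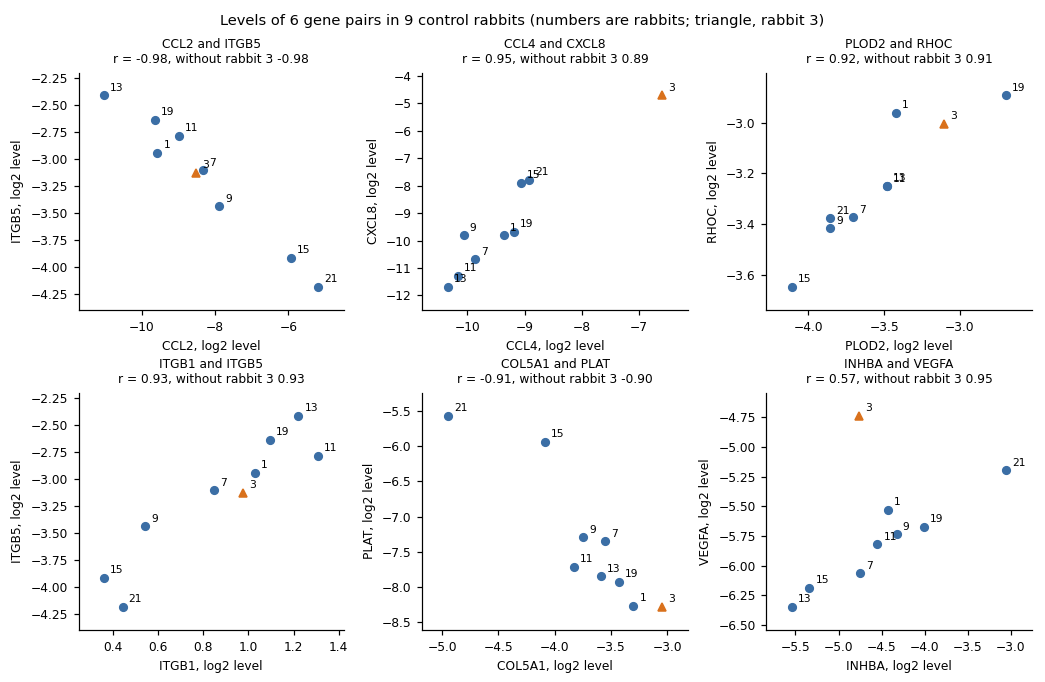
Log2 levels of the members of 6 gene pairs against each other, 1 point per control rabbit with its number, a triangle for rabbit 3, and Pearson r with and without that rabbit above each panel. CCL2 and ITGB5 fall along a line with rabbits 15 and 21 at one end and 13 at the other, and INHBA and VEGFA go from r = 0.57 to r = 0.95 when rabbit 3 is left out.

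Some pairs ranked among the smallest p only when rabbit 3 was left out. INHBA and VEGFA had r = 0.57 with all rabbits and 0.95 without rabbit 3, and FGF2 and STAT3 had 0.52 and 0.93. CXCL2-like and PTGS2, both inflammatory, had 0.80 and 0.87, ITGA6 and TLR4 had 0.85 and 0.94, PDGFA and TNC had 0.82 and 0.93, and COL5A1 and PTGS2 had -0.63 and -0.91. None had an adjusted p under 0.05 in either set of rabbits, the lowest over all pairs in the exact test without rabbit 3 being 0.0798.

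Counting for each gene the pairs with an unadjusted p under 0.05, ITGB5 had 17 of 65 possible partners, PLAT 16, ITGA6 15, ITGB1 14 and CCL2 13, where 10.4% of all pairs had such a p. Without rabbit 3 these counts were 20, 20, 17, 18 and 16, and CXCL8 went from 11 to 17. The 8 positive partners of ITGB5 included ITGB1, COL5A1, CTSK and FGF2, and its 9 negative partners included CCL2, PLAT, TLR4, ITGA6 and IGF1. CCL2 had PLAT, TLR4, ITGA6, TIAM1, PTGS2 and CXCL2-like among its 8 positive partners. These counts are not independent, since all pairs were read in the same 9 rabbits. Within lists, the median r between detected members was 0.69 for the 3 pairs of CTSK, MMP2 and TIMP1, 0.16 for 91 growth factor pairs, 0.25 for 15 chemokine pairs and -0.32 for 28 integrin pairs, beside 0.07 for all pairs. Without rabbit 3 the chemokine median fell to 0.08, beside 0.07 for all pairs.

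The rabbits differed along a few directions. The first principal component of the centred levels of the 66 GOIs held 40.6% of the variance and the second 28.0%. Rabbit 13, at 8.53 on the first, was opposite to rabbits 3 and 21, at -6.07 and -6.22, and PLAUR and CXCL8 had the largest weights. The second set rabbits 1 and 3, at 5.86 and 5.76, against rabbits 15 and 21, at -5.21 and -5.20. Without rabbit 3 the first held 46.8% and still had rabbit 13 at -7.68 and rabbit 21 at 8.24 as its ends, but its largest weights were those of CCL2 and TGFBR3, and PLAUR made up 49.0% of the second.

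Rabbit 3, with the latest reference Ct, had the highest level for 18 of the 66 GOIs and the lowest for 6. Rabbits 21 and 11 were highest for 14 and 13 GOIs, and rabbit 13 was lowest for 15. In rabbit 3, CXCL8, PLAUR and CCL4 were above the mean of the other 8 rabbits by 5.11, 4.89 and 3.04 log2 units. The levels were then set against the reference Ct of the rabbits. None of the 66 GOIs passed an adjusted p of 0.05 in the exact permutation test of Pearson's r (0% called, lowest adjusted p = 0.0770), while 10 had an unadjusted p under 0.05, all with a higher level at a later reference Ct. Spearman's rho gave 0 and 6 genes, and without rabbit 3 the counts were 0 and 4. VEGFA, an endothelial growth factor, had r = 0.85 with all 9 rabbits, 0.75 without rabbit 3 and 0.72 without rabbits 3 and 15. In the same fits r was 0.72, 0.76 and 0.74 for PLAUR, the gene of widest spread, and 0.85, 0.69 and 0.69 for TGFB3. For PLG and STAT3, r fell from 0.85 and 0.79 to 0.05 and -0.01 without rabbits 3 and 15, so that these relations rested on those 2 rabbits. A reference Ct later in 1 rabbit raises every GOI of that rabbit by the same amount, and how much of these relations comes from that was not tested.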

How the data were processed

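RNA extracted with TRIzol was reverse transcribed with a first strand kit, and plates were read on a Mx3000P instrument by the authors, who used GeneGlobe. The authors deposited the raw Ct per well, in cycles, and per GOI a ratio against the reference genes, made by the deltaCt method. Recomputing that ratio from the Ct with a ceiling of 35 and the geometric mean of the 5 reference Ct matched the deposited one within 5e-07. The authors' fold changes between groups, also deposited, were not used.

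The log2 of the ratio was analysed in the 9 control rabbits, grouped by label, with exact sign-flip and permutation tests and Benjamini-Hochberg adjustment at 0.05 (Python 3.11.15, numpy 2.4.6, pandas 2.3.3, scipy 1.17.1, matplotlib 3.10.9), tested on simulated data. Spread and covariation used GOIs with a Ct below 35 in every control rabbit, and the search for single outlying rabbits those with at least 5 such wells. There is no read depth, and 1 well per gene and rabbit limits precision. The tests took rabbits as units, with PCR error mixed into the differences between animals. Named were the 12 highest GOIs, those at the ceiling, the 6 tightest, widest and lowest always-detected GOIs, the extremes of each of 12 gene lists, and the 8 positive and 4 negative pairs of smallest p with all rabbits and without rabbit 3. Other genes were named after their values were seen. Results of 3 GOIs are not reported here, though all fits and counts include them. The members, lists and rules were chosen with earlier results of these data known, and 10 GOIs were placed in lists after the array was read. Of 84 accessions, 58 matched RefSeq (assembly mOryCun1.1), 56 with the same symbol. TAGLN is listed on the array as LOC100009332 and CXCL2-like as LOC100354804. Alternatives were other reference levels, thresholds, filters, measures and leaving out each rabbit.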

Additional observations from a re-analysis of the deposited data

Results flagged for a closer look

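Of 83 sets of 9 values examined (the reference Ct, each reference gene against the other 4, the level of a well at the ceiling, and levels of the 76 GOIs with at least 5 wells below the ceiling), 7 held a highest or lowest rabbit whose gap to the next was above the critical value of Dixon's test, where chance alone gives about 1 in 20, or 4.15. Of the 7, 6 were rabbit 3. Its reference Ct of 24.53 lay above 22.00 to 22.82 in the others, and the level of a well at the ceiling, -10.47, follows from it. CCL4 in rabbit 3 was at -6.59, above -10.34 to -8.93 in the others. CSF2 there was at -9.49, above -12.55 to -11.58 in the others, 3 of which were at the ceiling, so that their levels are upper limits. PTK2 there was at -3.50, above -4.05 to -3.89. CSF3 there was at -9.24, above -11.67 to -10.57. In Ct, rabbit 3 lay within the others for CCL4 (31.12 against 31.06 to 32.77) and CSF3 (33.77 against 32.79 to 34.29). For CSF2 it was at 34.02 against 33.58 to 35.64 or no Ct, and for PTK2 it was later, at 28.03 against 25.95 to 26.83. These levels are relative to the late reference Ct of rabbit 3, and how much of the gaps comes from it was not tested. WNT2 in rabbit 21 was at -7.70, above -12.55 to -10.47 in the other rabbits, 3 of which were at the ceiling likewise.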

How the results depend on the processing

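Another reference shifts every GOI of a rabbit alike, so it cannot change the order of the mean levels, and the 12 highest GOIs were the same under the 5 other references. Without ACTA2 in the reference, 5 GOIs lay above the reference level, TAGLN was at 5.07, and 1 gene pair passed an adjusted p of 0.05. Without LDHA, these were 1, 3.09 and 4. With the mean of the detected GOIs as reference, they were 35, 9.03 and 6, with 20.1% of pairs at an unadjusted p under 0.05 and 1 GOI (PLAT) related to the reference Ct. Raw Ct without any reference gave 163 pairs, 29.7% unadjusted and a median r of 0.47. A threshold of Ct 33 put 24.5% of wells and 12 whole genes at or past it. The median absolute deviation exceeded 1 in 10 GOIs. All pairs in place of neighbours gave 3079 called pairs.

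Leaving out each rabbit in turn gave 4 to 11 GOIs related to the reference Ct at an unadjusted p under 0.05 and 0 to 1 after adjustment (PLAUR without rabbit 7, TGFB3 without rabbit 11, VEGFA without rabbit 21). The neighbours with the same order in every rabbit numbered 2 to 4, the latter without rabbit 9. Of the pairs named here, r changed sign on raw Ct for COL5A1 and PLAT, HGF and WISP3, and ITGA4 and ITGAV, to 0.19, 0.033 and 0.028. The cause was not tested. Each summary value had a limit on how far it could move. For the level of TAGLN the limit was its SD over rabbits, and for the median SD its approximate standard error. It was 0.1 for the median r and a factor of 1.5 for counts and percentages. Under all alternatives together, 235 summary values stayed within their limit and 24 moved further. Wells at the ceiling bound the level of 18 GOIs from above only.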
